A study of Mus musculus with 6 samples.

Results

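The most open regions of the hypothalamus are described here, as measured by ATAC-seq. They are the 808 regions with a mean of 64 CPM or more over 6 libraries, out of 233801 accessible regions, where CPM is a count scaled to the size of the library. The level itself chose them, so the levels are given as a description and are not tested. The assay uses the Tn5 transposase, which cuts DNA that is not wrapped in nucleosomes and leaves adapters there, and counts per region are taken as accessibility. The libraries come from the whole hypothalamus of 3 wild-type (WT) mice and 3 mice labelled Het, at postnatal days 60 to 70, in a series about losing MYT1L, a DNA-binding protein that neurons make. Each genotype held 2 females (WT replicates 5 and 33, Het replicates 19 and 48) and 1 male (WT replicate 56, Het replicate 42). The labels name no allele, strain or transgene beyond WT and Het. The series calls the mice biological replicates.

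Strong ATAC-seq signal is known at promoters of broadly used genes, at sites bound by the insulator protein CTCF, and at strong enhancers. High signal is also known over repeated DNA, where fragments from many genomic copies gather on few assembled ones. Weaker signal is typical of enhancers used in some of the cell types of a tissue. The regions here carry running numbers (all_hpt_peak_1 and so on), and no position, gene or sequence accompanies a number in the data used here. Widths are not given either, so CPM is per whole region, and most open here means highest in CPM per region and not per base. Which of these classes a region belongs to was not analysed, and the tissue label could not be checked against marker genes. As the libraries are from bulk tissue, fewer cells of a type and less open DNA per cell cannot be told apart.

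The 808 regions were 0.346% of all regions and held 8.05%, 8.30% and 8.38% of all CPM in WT replicates 5, 33 and 56. In Het replicates 19, 42 and 48 they held 8.10%, 7.97% and 8.02%. The median member had a mean of 77.8 CPM. Most of the members lay close to the threshold: 770 were at 1 to 2 times the threshold, 27 at 2 to 4 times, and 11 at 4 times the threshold or more. The 11 highest regions alone took 16.7% to 22.3% of the members' CPM, depending on the library. A region at 64 CPM held 1599 to 1630 adjusted counts per library, which are whole numbers after the authors' adjustment and not reads.

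The last regions inside the threshold and the first outside it had overlapping values. Region all_hpt_peak_17686 had a mean that rounds to 64 CPM, and its libraries ran from 61.5 CPM (WT replicate 56) to 66.4 CPM (WT replicate 5). Region all_hpt_peak_208783 had a mean of 64.11 CPM, with 60.9 CPM in its lowest library (Het replicate 19) and 66.7 CPM in its highest (WT replicate 56). Just outside, all_hpt_peak_156823 had a mean of 63.99 CPM (62.6 to 65.4) and all_hpt_peak_206299 a mean of 63.98 CPM (61.8 to 67.0). The same regions would therefore not be picked from every mouse. Of the 808 members, 668 were at 64 CPM or more in all 6 libraries, and 161 regions outside the set reached 64 CPM in at least 1 library. A mean of 64 CPM was reached by 803 regions in WT and by 823 in Het, and 779 regions reached it in both, which is 97.0% of the WT list and 94.7% of the Het list.

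**Figure D1:**
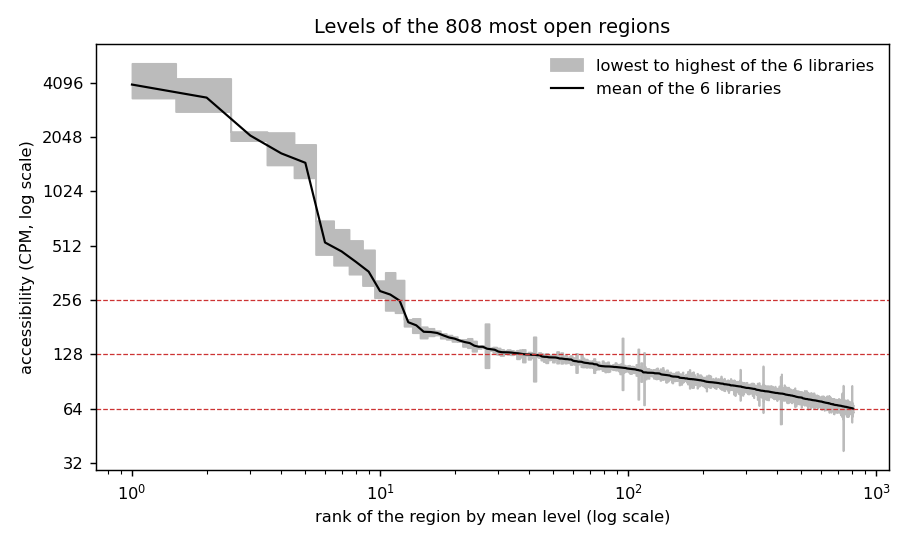
Accessibility in CPM (log scale) of the 808 regions against their rank by mean level (log scale); the line is the mean of the 6 libraries, the grey band runs from the lowest to the highest library, and dashed lines mark the threshold of 64 CPM and 2 and 4 times that level. The curve climbs steeply over the first 11 regions to 4001 CPM, and the band is wide over 9 of them.

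Far above the others stood 5 regions, with means from 1474 to 4001 CPM, while the sixth had 533 CPM. They were the 5 highest regions in each of the 6 libraries. The most open, all_hpt_peak_130874, had 3369, 4449 and 5244 CPM in WT replicates 5, 33 and 56, and 3884, 3684 and 3376 CPM in Het replicates 19, 42 and 48. WT replicates 33 and 56 were above every Het library, and WT replicate 5 was below every one. Next, all_hpt_peak_220203 had 3077, 3703 and 4325 CPM in WT replicates 5, 33 and 56, and 2966, 2835 and 3417 CPM in Het replicates 19, 42 and 48. Here WT replicate 5 fell between Het libraries, and replicates 33 and 56 were again above them all.

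The fourth and the fifth had the same order of WT libraries. In all_hpt_peak_70290 the values were 1477, 1856 and 2168 CPM in WT replicates 5, 33 and 56, and 1513, 1435 and 1525 CPM in Het replicates 19, 42 and 48. In all_hpt_peak_229789 they were 1349, 1598 and 1863 CPM in WT and 1273, 1218 and 1546 CPM in Het, in the same order of replicates. The third, all_hpt_peak_101036, was different: it had 2140, 2153 and 2006 CPM in WT and 2194, 2075 and 1958 CPM in Het. Its 6 libraries lay close together, the genotypes overlapped, and WT replicate 56 was the lowest of the WT libraries rather than the highest.

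One order of libraries was shared by 9 of the 11 highest regions: WT replicate 56 was the highest and WT replicate 33 came next. In these 9, WT replicate 56 lay 0.35 to 0.43 above the mean of the region on the log2(CPM + 0.5) scale and WT replicate 33 lay 0.13 to 0.22 above it. WT replicate 5 lay 0.11 to 0.23 below the mean, which is within or below the Het libraries. WT replicate 56 over WT replicate 5 gave a median of 1.54-fold over the 11 regions. The exceptions were all_hpt_peak_101036 and all_hpt_peak_229788, which had 286, 265 and 288 CPM in WT replicates 5, 33 and 56, and 264, 292 and 328 CPM in Het replicates 19, 42 and 48. The order with WT replicate 56 first and WT replicate 33 second, both above the other libraries, was looked for after these values were seen. It held in 27 of the 797 other members, or 3.39%, and in 7.86% of all regions that average 1 CPM or above.

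**Figure D2:**
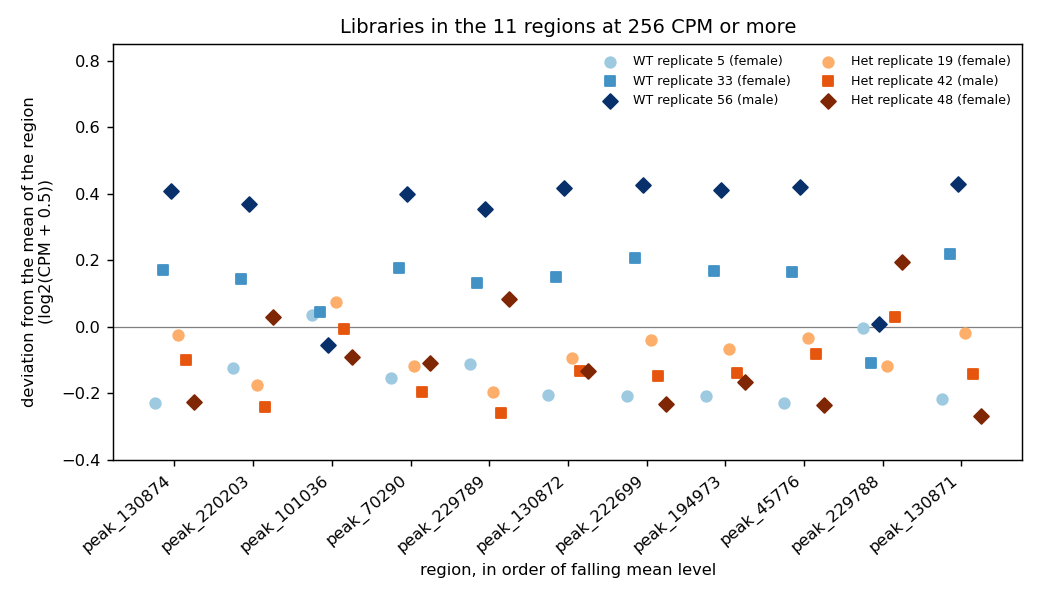
Deviation of each library from the mean of the region, on the log2(CPM + 0.5) scale, for the 11 highest regions in order of falling mean level. WT replicate 56 lies at 0.35 to 0.43 in 9 regions, WT replicate 33 at 0.13 to 0.22 in the same 9, and peak_101036 and peak_229788 lack this order.

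The share of all CPM was used to compare the genotypes with 1 value per mouse. The 11 highest regions held 1.62% ± 0.27 in WT and 1.38% ± 0.03 in Het (SD, n = 3; two-sided exact permutation p = 0.4, 0.6 after Benjamini-Hochberg adjustment over 3 classes). Regions at 2 to 4 times the threshold held 0.411% ± 0.007 in WT and 0.404% ± 0.005 in Het (SD, n = 3; exact permutation p = 0.2, adjusted 0.6). Regions at 1 to 2 times the threshold held 6.22% ± 0.11 in WT and 6.24% ± 0.04 in Het (SD, n = 3; exact permutation p = 0.9, adjusted 0.9). All members together held 8.25% ± 0.17 in WT and 8.03% ± 0.06 in Het (SD, n = 3; exact permutation p = 0.2). With 3 mice against 3 this test cannot give a p below 0.1, so it can neither call a difference nor show that there is none. For all members together the difference of -0.219 percentage points was larger than either SD, while WT replicate 5, at 8.05%, fell between Het replicates 42 and 19. Without the 11 regions the Het minus WT difference was 0.0188 percentage points, against -0.219 with them, so its sign rests on them.

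The comparison of Het with WT region by region showed small differences in nearly all members. Fitted with limma across the 156624 regions that average 1 CPM or above, 0 of the 808 members were higher and 0 lower in Het (Benjamini-Hochberg adjusted p under 0.05). The same fit called 0% of all tested regions in either direction. At an unadjusted p under 0.05, 25 members were higher and 17 lower in Het, against 5.87% and 5.31% of all tested regions. These shares of tested regions are for each direction on its own. Both directions together took 5.20% of the members, less than either of those shares alone, so members passed less often than tested regions. The mean of Het lay within 1.1-fold of the mean of WT in 785 of 808 members, or 97.2%, compared with 96.8% of regions at 32 to 64 CPM and 57.7% of all tested regions. Only 8 members lay beyond 1.25-fold, 5 higher and 3 lower in Het, which is 0.99% of the members against 8.81% of tested regions. A low level widens the spread of a ratio, so shares over all tested regions are not like for like.

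No common direction held for the set. The mean was higher in Het in 447 members and lower in 361, a share of 55.3% higher with a median log2 change of 0.006. Over all tested regions 49.8% were higher and the median was -0.0008. Regions at 32 to 64 CPM gave 56.9% and a median of 0.010. The share was 54.5% with trimmed mean scaling and 52.8% with equal CPM totals. Quantile normalization gave 47.9% and a median of -0.002, but it forces a shared shift of the highest ranks towards 0 and does not test the direction. The direction depended on single mice: 66.5% of members in Het replicate 19 were above the WT mean, but 48.6% in replicate 42 and 47.9% in replicate 48. Without Het replicate 19 the share was 47.0%, and without WT replicate 56 it was 40.2%.

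All 3 Het values lay above all 3 WT values in 53 members, or 6.56%, and below them in 32, or 3.96%. Over all tested regions these shares were 8.48% and 8.14%, and at 32 to 64 CPM they were 7.69% and 3.83%. The smaller share on the lower side was therefore not particular to the members. The separated members differed little in level, with a median absolute log2 change of 0.07. A separated member with a larger change is all_hpt_peak_100181, which was named for its small p and is not a typical case. It had 71.8, 72.4 and 71.1 CPM in WT replicates 5, 33 and 56 and 80.1, 77.6 and 82.3 CPM in Het replicates 19, 42 and 48. Every Het library was above every WT library, by 0.15 ± 0.04 in log2 (SE; adjusted p = 0.315 in limma). None of the 11 highest regions separated the genotypes: WT replicate 5 was below at least 1 Het library in each.

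**Figure D3:**
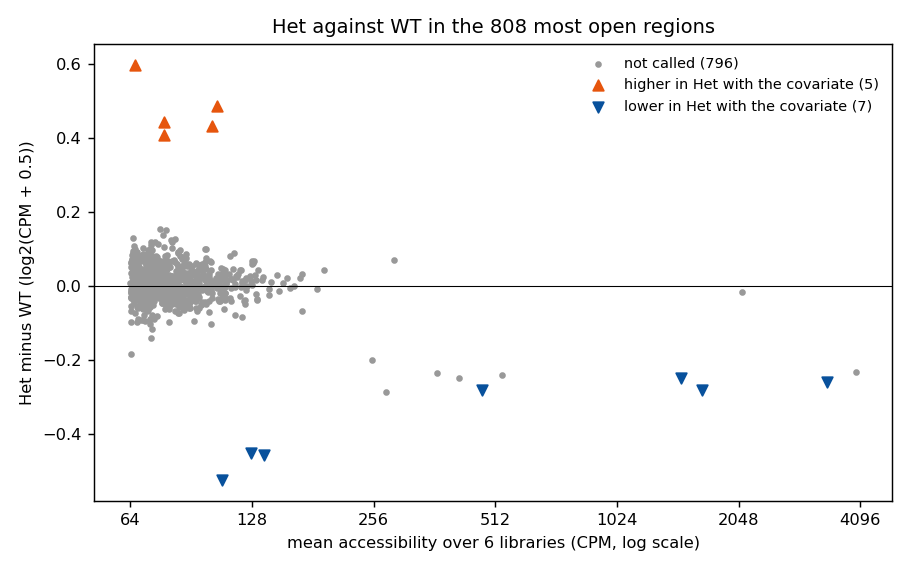
Het minus WT on the log2(CPM + 0.5) scale against mean accessibility in CPM (log scale) for the 808 regions; triangles mark the 5 regions higher and the 7 lower in Het that limma called once the missing direction was a covariate, and grey points the other 796. Below 4 times the threshold the grey points run from -0.20 to 0.15, and the 8 marked regions there lie outside that band.

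The authors' adjustment for unwanted variation, RUVr, left 1 of the 4 directions of variation within genotypes almost empty, at 0.0577% of that variance. The residuals thus spread over fewer directions than their degrees of freedom count, and a second fit took this missing direction as a covariate. In that fit limma estimated 57.1 prior degrees of freedom, against 7.15 before, and pulled each region's variance much further towards the trend. It called 5 members higher and 7 lower in Het (limma, adjusted p under 0.05). Over all tested regions it called 0.046% higher and 0.00958% lower, or 72 and 15 regions. The members thus held 5 of the 72 and 7 of the 15. Regions with more counts have smaller SEs, so counts of calls at different levels are not like for like. The median SE was 0.056 at 1 to 2 times the threshold, 0.069 at 32 to 64 CPM and 0.211 at 1 to 2 CPM. Of the 3444 regions at 32 to 64 CPM, 15 were called higher and 1 lower. Why the members held these calls was not tested. At an unadjusted p under 0.05 the second fit gave 14 members higher and 17 lower, against 3.59% and 2.94% of tested regions. The calls came with smaller SEs: in the 12 called members they were 0.05 to 0.09 with the covariate and 0.10 to 0.17 without it. The SD within genotypes in these regions was 0.20 to 0.34. In the level classes below 4 times the threshold the median SE rose instead. With the covariate it went from 0.0425 to 0.0563 at 1 to 2 times the threshold and from 0.0526 to 0.069 at 32 to 64 CPM. At 4 times the threshold or more it fell from 0.1097 to 0.053. An SE of a difference and an SD between libraries are unlike measures. In the 12 called members the SEs of either fit rest on a variance pulled towards the trend, more so with the covariate. Neither SE therefore shows how far these libraries lie apart. The 12 called members had limma adjusted p from 0.315 to 0.422 without the covariate.

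The 5 members called higher were at 65.9 to 104.7 CPM, with log2 changes from 0.41 to 0.60. Region all_hpt_peak_64171 had 101, 88.7 and 72.1 CPM in WT replicates 5, 33 and 56 and 122, 107 and 137 CPM in Het replicates 19, 42 and 48. All Het libraries were above all WT libraries, at 122.0 ± 14.9 against 87.3 ± 14.6 CPM (SD, n = 3) and 0.49 ± 0.07 in log2 (SE; adjusted p = 7.27e-05 in limma with the covariate). Region all_hpt_peak_45861 had the largest change of all members, with 65.0, 56.2 and 37.4 CPM in WT replicates 5, 33 and 56 and 86.2, 64.2 and 86.3 CPM in Het replicates 19, 42 and 48. Its log2 change was 0.60 ± 0.09 (SE; limma adjusted p = 0.000541 with the covariate), but Het replicate 42 lay just under WT replicate 5, so the genotypes overlapped. It was named after its values were seen.

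The other three higher members overlapped in the same way. Regions all_hpt_peak_166120 and all_hpt_peak_166121 carry consecutive numbers and had nearly the same values. The second had 74.6, 69.9 and 52.7 CPM in WT replicates 5, 33 and 56 and 94.7, 73.7 and 99.6 CPM in Het replicates 19, 42 and 48. The log2 change was 0.41 in the first and 0.44 in the second, and if they adjoin they may not be separate observations. In all_hpt_peak_43611 the values were 102, 91.5 and 67.2 CPM in WT and 123, 96.2 and 131 CPM in Het, a log2 change of 0.43. In all 5 regions WT replicate 56 was the lowest library and Het replicate 48 the highest, and Het replicate 19 was above every WT library. Het replicate 42, the Het male, was above WT replicate 5 in 1 of the 5.

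The 7 members called lower were of 2 kinds by level. The first 3 lay at 107.9 to 137.5 CPM with log2 changes from -0.53 to -0.45. Region all_hpt_peak_88766 had 106, 121 and 158 CPM in WT replicates 5, 33 and 56 and 81.4, 92.7 and 89.0 CPM in Het replicates 19, 42 and 48. Every WT library was above every Het library, at 128.1 ± 26.8 against 87.7 ± 5.7 CPM (SD, n = 3) and -0.53 ± 0.07 in log2 (SE; adjusted p = 1.8e-05 in limma with the covariate). Region all_hpt_peak_68629 had 124, 157 and 160.0 CPM in WT and 112, 90.8 and 119 CPM in Het, in the same order of replicates. Its genotypes did not overlap either, and differed by -0.45 ± 0.06 in log2 (SE; adjusted p = 7.57e-05 in limma with the covariate). In all_hpt_peak_229688 WT replicate 5, at 122 CPM, was under Het replicate 19, at 127 CPM.

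The other four were among the 11 highest regions: all_hpt_peak_220203, all_hpt_peak_70290, all_hpt_peak_229789 and all_hpt_peak_222699, with log2 changes from -0.28 to -0.25. The most open region, all_hpt_peak_130874, had a change of -0.23 ± 0.05 and did not pass (SE; limma adjusted p = 0.0665 with the covariate). Single libraries set the size of these changes, computed without the covariate. For all_hpt_peak_130874 the change was -0.41 without WT replicate 5, -0.09 without WT replicate 56 and -0.10 in females alone, and with the covariate it was called without WT replicate 5, at -0.44. For all_hpt_peak_220203 the change was -0.39 without WT replicate 5, -0.14 without WT replicate 56 and -0.08 in females. The same 3 settings gave -0.43, -0.15 and -0.12 for all_hpt_peak_70290, and -0.37, -0.13 and -0.07 for all_hpt_peak_229789. All were smaller without the WT male and larger without WT replicate 5. With quantile normalization, which gives every library the same value at the same rank, the sign turned to 0.08 in all_hpt_peak_220203 and to 0.05 in all_hpt_peak_229789. In all 7 members called lower, WT replicate 56 was the highest library and WT replicate 33 the second, and WT replicate 5 fell between Het libraries in 5.

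**Figure D4:**
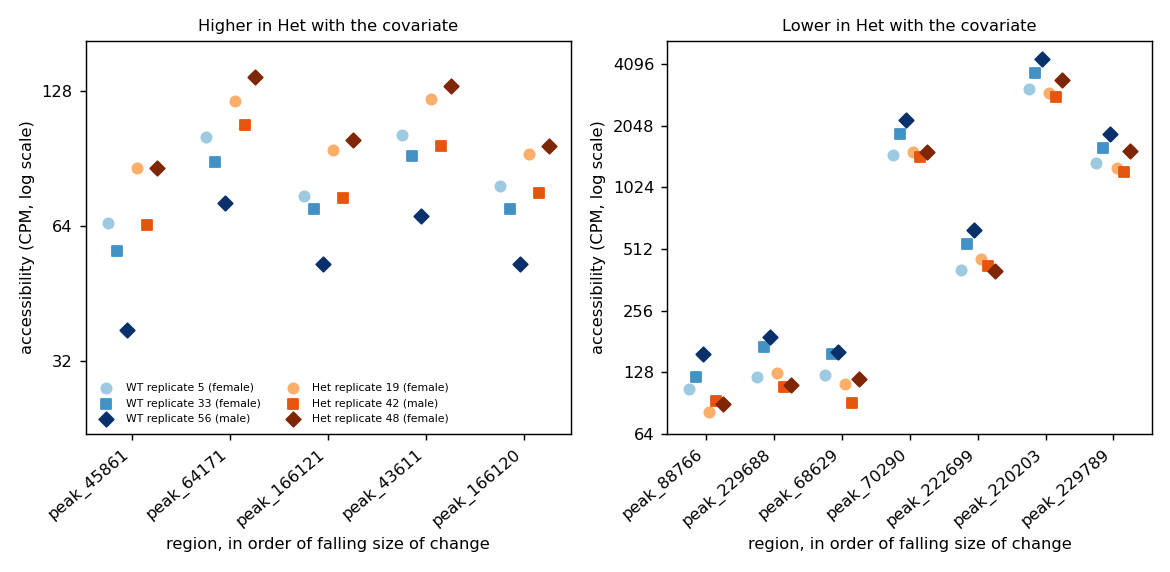
Accessibility in CPM (log scale) in each of the 6 libraries for the 5 regions called higher (left) and the 7 called lower (right) in Het with the missing direction as a covariate. WT replicate 56 is the lowest library in all 5 on the left and the highest in all 7 on the right, and the genotypes separate only in peak_64171, peak_88766 and peak_68629.

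These 12 calls changed with the libraries included. When a library was left out, the covariate kept its weights from all 6, so these fits also changed what the covariate removed. The part of a single mouse cannot be told apart from that change. With the covariate, the count of members called higher was 0 without Het replicate 48 and 1 without Het replicate 19 or without WT replicate 56, and it stayed at 5 without any of the other three libraries. Leaving out WT replicates 5, 33 and 56 in turn gave 14, 1 and 2 members called lower. Leaving out Het replicates 19, 42 and 48 gave 5, 3 and 4. In the covariate fit all_hpt_peak_64171 changed by 0.32 without WT replicate 56 and was not called without Het replicate 48. Region all_hpt_peak_88766 changed by -0.33 without WT replicate 56, and all_hpt_peak_68629 changed by -0.28 and was not called without WT replicate 33. Of the 12 regions, 12 were still called without WT replicate 5 and 3 without WT replicate 56. When the prior variance was the same at all levels, 0 members were called in either direction with the covariate (limma, smallest adjusted p = 0.744).

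Spread within a genotype was small for most members. The median SD within genotypes was 0.050 on the log2(CPM + 0.5) scale, against 0.063 at 32 to 64 CPM and 0.197 at 1 to 2 CPM. The highest library exceeded the lowest by a median of 1.1-fold, and by more than 1.5-fold in 20 members. In the 11 highest regions the median SD was 0.312 among the WT mice and 0.102 among the Het mice. In the other 797 members it was 0.045 in both genotypes. All of these SDs are of adjusted values, from which 1 direction had been removed.

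An SD within genotypes above 0.2 was found in 20 members, or 2.48%, compared with 0.958% of regions at 32 to 64 CPM. Of these 20, 8 were among the 11 highest regions and 11 among the 12 regions called with the covariate. WT replicate 56 was the highest library in 15 of the 20 and the lowest in the other 5. Among all members WT replicate 56 was the highest or the lowest library in 52.8%. Its part in the calls was not tested beyond leaving it out.

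**Figure D5:**
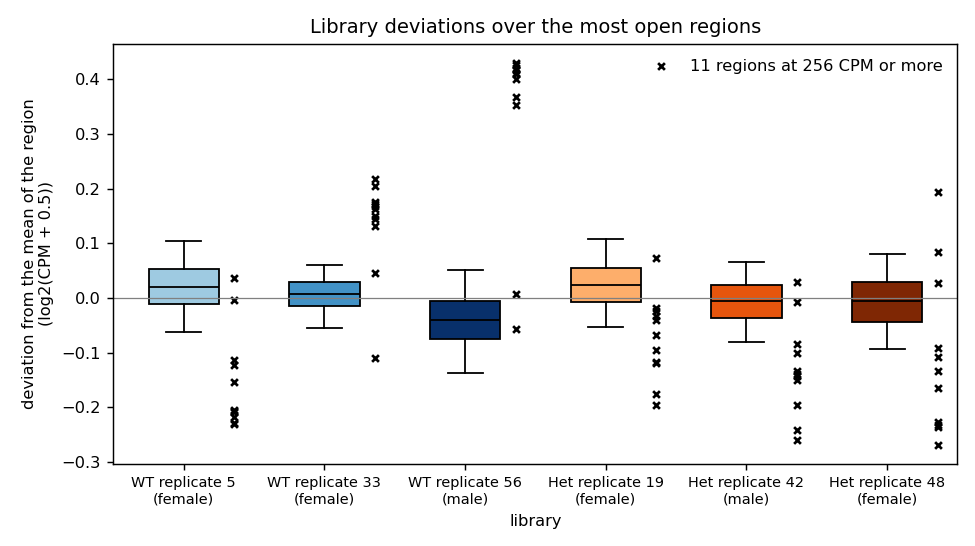
Deviation of each library from the mean of the region (log2(CPM + 0.5)); boxes show the median and quartiles over the 797 members below 4 times the threshold with whiskers at the 5th and 95th percentiles, and crosses the 11 highest regions. The box of WT replicate 56 lies lowest, with a median of -0.041, while 9 of its 11 crosses lie at 0.35 to 0.43.

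In WT replicate 56 the bulk of the members and 9 of the 11 highest regions thus deviated in opposite directions. In the 797, the median deviation was 0.021, 0.007 and -0.041 in WT replicates 5, 33 and 56, and 0.024, -0.005 and -0.005 in Het replicates 19, 42 and 48. WT replicate 56 was the lowest library in 363 of the 797, and Het replicate 19 the highest in 265. Up to 2 times the threshold this share was larger at higher levels: WT replicate 56 was the lowest library in 19.3% of regions at 1 to 2 CPM, in 30.2% at 16 to 32 CPM, in 39.1% at 32 to 64 CPM and in 45.8% at 1 to 2 times the threshold. At 2 to 4 times the threshold it was 37.0%, or 10 of 27 regions. The number of regions at 64 CPM or more in a library was smallest in the same mouse, with 736 in WT replicate 56 as the lowest, 867 in Het replicate 19 and 870 in WT replicate 5 as the highest, and 795 to 819 in the other libraries.

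Males and females were compared with genotype in the model, with 2 male and 4 female libraries. No member was called: limma gave 0 of 808 at an adjusted p under 0.05 (0% of tested regions), with 15 higher and 122 lower in males at an unadjusted p under 0.05, where 13.3% of all tested regions passed. Of the members, 610 were lower in males, or 75.5%, against 51.3% of tested regions, with a median log2 change of -0.03. The lean was not particular to the members. Among the 4252 regions at 32 CPM or more, members included, 1365 were higher in males and the median was also -0.03. The lean did not hold in the highest members: at 2 times the threshold or more, 19 of 38 were higher in males (median 0.0005). Both males were below all 4 females in 190 members, or 23.5%, and above them in 28. Over all tested regions the shares were 10.3% and 8.88%. By trimmed mean scaling 227 members were higher in males (median -0.03), and with equal CPM totals 246 were (median -0.02), so the lower side kept the majority. The size of the lean depended on the male used. Without WT replicate 56, the WT male, 301 members were higher (median -0.016), and 381 with the missing direction as a covariate (median -0.005). Without Het replicate 42, the Het male, 184 were higher (median -0.057), and 187 with the covariate (median -0.07). Quantile normalization gave 399 higher and a median of 0.00, but it sets the same values at the same ranks in every library and so removes any shared shift of the top regions by construction.

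Region all_hpt_peak_166121, described among the members higher in Het, had the smallest p on the lower side, at 63.2 CPM in males and 84.7 ± 14.6 CPM in females (SD over the 4 females), or -0.42 ± 0.04 in log2 (SE; adjusted p = 0.296 in limma). On the other side, all_hpt_peak_119393 had 69.1 and 69.5 CPM in the males WT replicate 56 and Het replicate 42, and 62.3 to 64.2 CPM in the females. Both males were above all females, by 0.13 ± 0.03 in log2 (SE; adjusted p = 0.296 in limma). With the missing direction as a covariate 10 members were called, 5 higher and 5 lower in males, against 0.0319% of tested regions. The 5 lower in males were the 5 called higher in Het. Both comparisons use the same 6 libraries, so this overlap is not a separate result. By the limma interaction, 0 members had a genotype change that differed by sex (adjusted p under 0.05, 0% of tested regions). At an unadjusted p under 0.05 there were 29 members, 9 of them among the 11 highest, where 2.23% of tested regions passed. With 1 male per genotype, sex and the single male cannot be told apart within a genotype.

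The members were spread over the range of region numbers, with 58 to 106 in each of 10 equal spans of that range. Another member stood at the next or the previous number for 22 members, or 2.72%, while members are 0.346% of all regions. A member has 2 such numbers, so these shares are not like for like. Of the regions at numbers beside a member, 4.96% were at 32 CPM or more, against 1.82% of all regions. The 22 members lay in 10 runs, of which 1 held 4 regions and the others were pairs. The run of 4 held all_hpt_peak_130871 to all_hpt_peak_130874, at 274, 533, 254 and 4001 CPM, with log2 changes of -0.29, -0.24, -0.20 and -0.23. Thus 3 of the 11 highest regions, and another just below them in level, carry consecutive numbers and moved alike. The pair all_hpt_peak_229788 and all_hpt_peak_229789, at 287 and 1474 CPM, did not move alike, with log2 changes of 0.07 and -0.25. Regions at the numbers before and after a member had a median of 2.59 CPM, close to the median of 3.26 CPM beside regions at 32 to 64 CPM and above the 1.75 CPM of all regions. Whether consecutive numbers adjoin in the genome was not analysed.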

How the data were processed

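ATAC-seq of the hypothalamus was analysed in 6 libraries, 3 per genotype. Sample titles gave the groups, sexes and replicate numbers, and data columns were matched through sample descriptions. The authors deposited log2 CPM values after RUVr, per the name of the table. The submitters' processing notes list mm10, Trimmomatic, Bowtie2, STAR and HTSeq without saying which assay each served. Peak calling and transposase offset: not given in the sources used here.

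The lowest deposited log2 value, -3.65 in all libraries, was taken as a prior of 0.0794 CPM and removed. In each library 100% of the low values checked were then whole multiples of 1 step, to within 0.1 of a step. The original read depth is unknown, and counting intervals are left out. Regions averaging 1 CPM or above (156624, among them all 808 members) were fitted as log2(CPM + 0.5) in limma 3.58.1 (R 4.3.3) with genotype as the term, an intensity trend and Benjamini-Hochberg adjustment over regions, two-sided. Changes are on that scale. The covariate was the last singular vector of residuals around genotype means. It was computed once from all 6 libraries, and fits with a library left out kept those weights. Shares of CPM were compared by exact permutation over libraries (Python 3.11.15). The fits were also run on simulated counts that had the same level of extra spread in every region. That run does not cover regions that vary far more than others of their level, as the called members do.

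Named regions were the 5 highest by level, 2 on each side of the threshold, per direction up to 2 by smallest p and up to 2 by size among those called with the covariate without overlap, and 1 per direction for sex. Others were named after their values were seen. The members, lists and fits were chosen with earlier results of these data known.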

Additional observations from a re-analysis of the deposited data

How the results depend on the processing

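The counts of 0 members called higher and 0 lower in Het stayed at 0 under other pseudocounts, filters, scalings and member thresholds, with sex as a term, without the variance trend and on the deposited values. The missing direction as a covariate made them 5 and 7, and residual degrees of freedom lowered by 1 made them 5 and 9. Females alone gave 3 higher. Leaving out single libraries gave 0 to 5 higher and 0 to 3 lower: 5 and 3 without WT replicate 33, and 2 lower without WT replicate 5. In the covariate fit, with weights kept from all 6 libraries, the same step gave 0 to 5 higher. Without WT replicates 5, 33 and 56 and Het replicates 19, 42 and 48 it gave 14, 1, 2, 5, 3 and 4 lower. Settings chosen after seeing the data gave 12 lower when sex joined the covariate, 3 lower below 4 times the threshold, and 0 in either direction when the variance trend was dropped.

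Members whose genotypes do not overlap, 53 higher and 32 lower, became 318 and 164 at 32 CPM or more, 2 and 2 at 2 times the threshold or more, and 129 and 119 in females, where fewer libraries must separate. Quantile normalization gave 49 lower. Leaving out single libraries gave 65 to 147 higher and 39 to 101 lower. The share of members higher in Het, 55.3%, was 42.1% at 2 times the threshold or more, 47.9% after quantile normalization, 44.6% in females and 40.2% to 63.2% with a library left out. The median change was then -0.0088, -0.0022, -0.0064 and -0.0105 to 0.0184, in that order. The difference in the share of all CPM, -0.219 percentage points, was 0.00155 after quantile normalization. That method gives every library the same value at the same rank, so it removes nearly all of this difference by construction. The difference was 0.0188 below 4 times the threshold (chosen after seeing the data) and -0.316 to -0.15 with a library left out. The cause of these other changes was not tested. Scaling a whole library leaves its shares as they are.

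For males against females the count of 0 became 10 in the covariate fit, 19 with degrees of freedom lowered and 0 to 14 with a library left out. In the covariate fit without WT replicates 5, 33 and 56 and Het replicates 19, 42 and 48 it was 7, 19, 5, 18, 26 and 23, each on 1 residual degree of freedom. Of the named regions, quantile normalization turned all_hpt_peak_220203 to 0.08, all_hpt_peak_229789 to 0.05 and all_hpt_peak_101036 to 0.13. The last ran from -0.06 to 0.02 with a library left out, being 0.001 without WT replicate 33 and 0.02 without Het replicate 48, and in the covariate fit 0.04 and 0.02 there. No paired analysis was possible because the genotypes share no replicate number.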
